A study of Mus musculus with 6 samples.

Results

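The subunits of the phagocyte NADPH oxidase, the enzyme that makes superoxide in neutrophils and macrophages, were examined in CD4+CD25+ regulatory T cells (Treg). Members were the 9 probe sets whose platform annotation gave Cybb, Cyba, Ncf1, Ncf4, Rac1 or Rac2 as the only gene symbol, out of 22626 probe sets that were not controls. Total RNA came from magnetically separated cells of mice lacking Mbd2 (MBD2-/-, called KO; 3 arrays) and of wild-type mice (WT; 3 arrays), all on the Balb/c background. Mbd2 encodes a protein that binds methylated DNA, and the study's title concerns Foxp3 demethylation and Treg function. The labels give no treatment, age or sex, and they do not say whether a sample held cells of 1 animal or a pool. The submitters called the 3 samples independent.

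The oxidase is assembled on demand. The membrane subunits gp91phox (Cybb) and p22phox (Cyba) form a flavocytochrome that passes electrons from NADPH to oxygen, and the cytosolic subunits p47phox (Ncf1) and p40phox (Ncf4) join it together with GTP-bound Rac when the cell is stimulated. Inherited loss of a phox subunit causes chronic granulomatous disease in humans. Rac1 is expressed in most cell types and Rac2 in blood cells, T cells included, where both also control the actin cytoskeleton.

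The values are the deposited log2 expression values of single-colour arrays, 1 value per probe set and array, without detection calls. A level on 1 probe set cannot be set against the level on another. WT replicate 3 stood apart, with Pearson correlations of 0.749 to 0.767 with the other arrays against 0.956 to 0.997 among those 5. Relative to the mean of WT replicates 1 and 2 it was shifted by a median of 0.31 for probe sets at log2 5 to 6, by -1.60 at 8 to 10 and by -0.98 at 10 and above. Each result is therefore given with 6 arrays and with the 5 arrays left without WT replicate 3. The targeted gene Mbd2 was at 5.93, 5.71 and 6.14 in KO arrays against 8.80, 8.66 and 6.93 in WT arrays on its brighter probe set. The labels do not say whether that probe set lies in the deleted part of the gene, so it may not check the genotype.

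Promoter windows were at hand for Cybb, Ncf1 and Cyba, 3 of the 6 genes (RefSeq, GRCm38.p6, 250 bases before to 50 bases after the annotated start, minus strand of each chromosome, printed 5′ to 3′ in the direction of the gene). They are shown because Mbd2 binds methylated CG, so the CG dinucleotides of each window can be seen, and because the transcription factor PU.1 (gene Spi1) binds GAGGAA cores. The windows are chrX:9469275-9469574 for Cybb, chr5:134229576-134229875 for Ncf1 and chr8:122432891-122433190 for Cyba. Capitals mark CG dinucleotides and GAGGAA on either strand, which reads TTCCTC on the strand printed.
Cybb: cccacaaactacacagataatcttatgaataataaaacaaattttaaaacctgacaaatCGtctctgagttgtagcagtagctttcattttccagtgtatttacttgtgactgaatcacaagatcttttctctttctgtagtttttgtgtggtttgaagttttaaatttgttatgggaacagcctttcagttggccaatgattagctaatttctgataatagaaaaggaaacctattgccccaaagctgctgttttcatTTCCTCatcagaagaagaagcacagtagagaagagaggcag
Ncf1: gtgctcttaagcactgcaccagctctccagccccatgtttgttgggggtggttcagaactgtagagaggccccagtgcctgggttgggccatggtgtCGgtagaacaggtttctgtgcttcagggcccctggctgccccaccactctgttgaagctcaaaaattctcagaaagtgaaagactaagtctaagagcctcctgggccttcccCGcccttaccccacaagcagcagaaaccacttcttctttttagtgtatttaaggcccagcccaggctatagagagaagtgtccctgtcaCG
Cyba: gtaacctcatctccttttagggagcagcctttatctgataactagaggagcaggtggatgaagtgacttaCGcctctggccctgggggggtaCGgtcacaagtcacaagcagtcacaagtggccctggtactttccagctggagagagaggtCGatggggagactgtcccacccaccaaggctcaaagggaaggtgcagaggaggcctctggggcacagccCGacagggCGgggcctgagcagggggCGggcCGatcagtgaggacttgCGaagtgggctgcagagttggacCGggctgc
The Cybb window held 1 CG, the Ncf1 window 3 and the Cyba window 9, where the median over 32851 mouse windows of this length was 7. Fewer CG than in the Cybb window were found in 5.43% of those windows, against 23.3% for Ncf1 and 54.2% for Cyba. GC content was 35.3% for Cybb, 54.0% for Ncf1 and 60.7% for Cyba. Searched on both strands, GAGGAA occurred in the Cybb window, 10 bases past the start, and not in those of Ncf1 and Cyba, while 28.3% of all windows held it. A CCAAT box was found in the Cybb window only, as in 37.4% of all windows. GATAA matched at 2 places each in the Cybb and Cyba windows and in 25.4% of all windows. The GC box GGGCGG, which contains a CG itself, matched at 1 place in the Ncf1 window and 2 in the Cyba window and in 35.7% of all windows. Methylation was not measured on these arrays, and a match is a description of letters.

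The main comparison asked whether oxidase subunit RNA differed between KO and WT cells. Cybb and the brighter Ncf1 probe set were higher in every KO array than in every WT array, by 3.32-fold and 2.63-fold over the means. Of all tested probe sets, 10.4% were likewise higher without overlap. Cyba, Ncf4, Rac1 and Rac2 overlapped between the groups, as did the dim Ncf1 probe set. With 6 arrays, Rac2 was the one gene with a lower mean in KO cells on a tested probe set. Of the 9 probe sets, 7 passed the filter on dim probe sets, with at least 1 for each gene. The other 2, of Ncf1 and Rac1, were left out of the test.

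No member passed an adjusted p of 0.05 in the limma fit of 6 arrays over 13575 probe sets, in which 14 probe sets or 0.103% passed. At an unadjusted p under 0.05 there were 2 members, Cybb and Ncf1, among 554 probe sets. The median log2 difference (KO minus WT) of the 7 tested member probe sets was 0.46, against 0.15 over all probe sets tested. No member passed with 5 arrays either, where 190 probe sets or 1.4% passed. At an unadjusted p under 0.05 there were then 3 members, Cybb, Ncf1 and Rac2, among 2930 probe sets. With 5 arrays 3 members were higher and 4 lower, and the median was -0.01 against -0.06 over all probe sets.

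**Figure D1:**
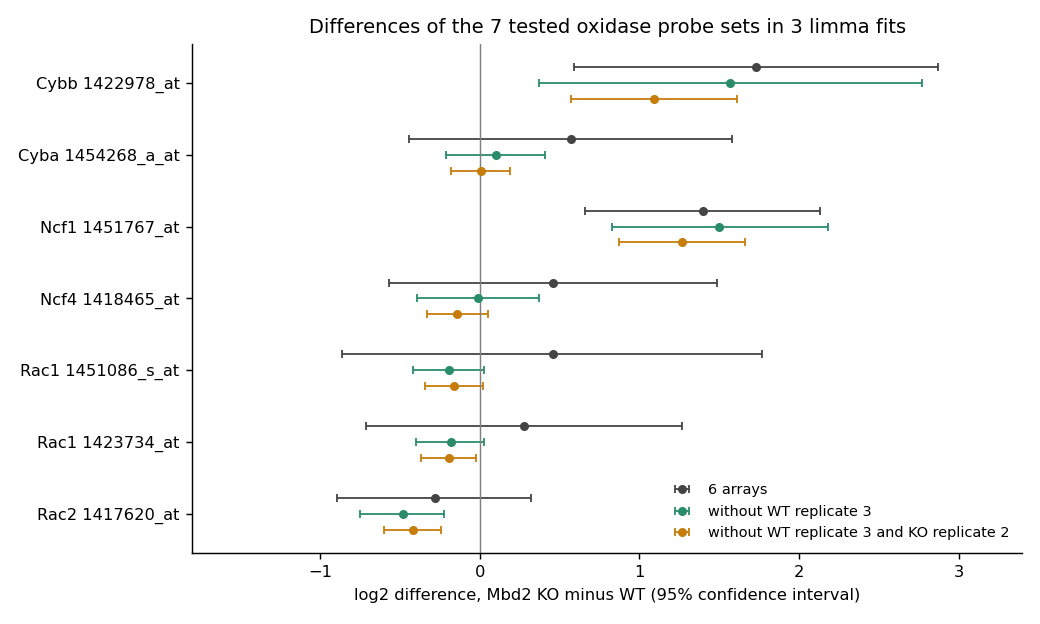
Log2 difference (KO minus WT, x axis) of the 7 tested oxidase probe sets in limma fits of 6 arrays, of 5 arrays and of 4 arrays; points are estimates and bars 95% confidence intervals. The intervals of Cybb and Ncf1 lie above 0 in all 3 fits, that of Rac2 lies below 0 in the fits of 5 and 4 arrays, and those of Cyba, Ncf4 and the upper Rac1 probe set include 0; that of the lower Rac1 probe set lies below 0 with 4 arrays.

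Cybb, the catalytic subunit, was at 6.85, 8.14 and 6.54 in KO arrays against 5.27, 5.94 and 5.13 in WT arrays. KO replicate 2 was the highest, 1.45 above the mean of the other KO arrays, and the groups did not overlap. The means were 7.18 ± 0.85 in KO and 5.45 ± 0.43 in WT (SD, n = 3 each), and the log2 difference was 1.73 with a 95% confidence interval of 0.59 to 2.87 (limma adjusted p = 0.735). With 5 arrays it was 1.57, from 0.37 to 2.77 (adjusted p = 0.154). The spread of the KO arrays was thus the wider one, and a single array gave most of it. With KO replicate 2 and WT replicate 3 both left out, Cybb was 2.13-fold higher in KO cells (log2 difference 1.09, adjusted p = 0.0185).

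Cybb lies on the X chromosome, and the Y-linked gene Eif2s3y was at 4.16, 7.62 and 7.88 in KO arrays against 4.05, 4.10 and 4.17 in WT arrays. Xist, the other tested gene of the sex-linked list, was at 10.32, 6.06 and 5.45 in KO arrays against 10.32, 10.27 and 9.17 in WT arrays. KO replicates 2 and 3 were thus high in Eif2s3y and low in Xist, the reverse of the other 4 arrays. The Cybb level of KO replicate 1, 6.85, lay between those of KO replicates 2 and 3. The part of sex in the values of Cybb and of the other members was not tested.

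Cyba, the membrane partner of gp91phox, was at 10.51, 10.75 and 10.42 in KO arrays against 10.46, 10.46 and 9.06 in WT arrays. Only WT replicate 3 stood apart, 1.40 below the mean of the other WT arrays, and the groups overlapped. With 6 arrays the log2 difference was 0.57, with an interval of -0.44 to 1.58 (limma adjusted p = 0.829). Over 5 arrays the difference of Cyba fell to 0.10 (adjusted p = 0.66). The interval of Cyba then ran from -0.21 to 0.41 and overlapped that of Cybb, 0.37 to 2.77.

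Ncf1, the organizer subunit p47phox, was at 6.91, 7.41 and 6.48 in KO arrays against 5.27, 5.59 and 5.75 in WT arrays on its brighter probe set. KO replicate 2 was again the highest, and the groups did not overlap. The means were 6.93 ± 0.47 in KO and 5.54 ± 0.24 in WT (SD, n = 3 each), a log2 difference of 1.40 with an interval of 0.66 to 2.13 (limma adjusted p = 0.474). Leaving out WT replicate 3 gave 1.5, from 0.83 to 2.18, which came closer to the threshold (adjusted p = 0.0616). With KO replicate 2 left out as well, Ncf1 was 2.40-fold higher in KO cells (log2 difference 1.27, adjusted p = 0.00485). The dim probe set of Ncf1, designed on the same sequence, was at 5.07, 5.13 and 4.98 in KO arrays against 4.65, 4.59 and 6.45 in WT arrays. WT replicate 3 was the highest array there, so the 2 probe sets of Ncf1 had opposite signs with 6 arrays. Without the filter the dim one had a log2 difference of -0.17 with 6 arrays (adjusted p = 0.913) and of 0.44 with 5 arrays (adjusted p = 0.0763).

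Ncf4, the regulatory subunit p40phox, was at 9.22, 9.57 and 9.10 in KO arrays against 9.30, 9.31 and 7.90 in WT arrays. As with Cyba, WT replicate 3 was the lowest array and the others lay close together. The log2 difference was 0.46 with 6 arrays, from -0.57 to 1.49 (limma adjusted p = 0.829). It was -0.01 with 5 arrays, from -0.39 to 0.37 (adjusted p = 0.98).

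Rac1 was measured by 2 bright probe sets and 1 dim one. The brightest was at 10.23, 10.12 and 10.20 in KO arrays against 10.34, 10.41 and 8.43 in WT arrays. The other bright one was at 9.92, 9.93 and 9.88 in KO arrays against 10.10, 10.09 and 8.71 in WT arrays. Both had WT replicate 3 far below the other arrays and KO arrays between it and WT replicates 1 and 2. Their log2 differences were 0.46 and 0.28 with 6 arrays (limma adjusted p = 0.829 and 0.834), and turned to -0.19 and -0.18 with 5 arrays (adjusted p = 0.287 and 0.281). The dim probe set, at 4.10, 4.11 and 4.22 in KO arrays against 4.29, 4.16 and 5.25 in WT arrays, had differences of -0.42 and -0.08 without the filter.

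Rac2, the Rac form of blood cells, was at 10.85, 10.69 and 10.92 in KO arrays against 11.27, 11.34 and 10.71 in WT arrays. WT replicates 1 and 2 were above all KO arrays, and WT replicate 3 was among them. The log2 difference was -0.28 with 6 arrays, from -0.89 to 0.32 (limma adjusted p = 0.829). It was -0.48 with 5 arrays, from -0.75 to -0.22, or 1.40-fold lower in KO cells (adjusted p = 0.0886). Without KO replicate 2 and WT replicate 3, the fit chosen after the arrays were seen, Rac2 was lower in KO cells by -0.42 (adjusted p = 0.0145). That fit called 18.7% of all probe sets.

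**Figure D2:**
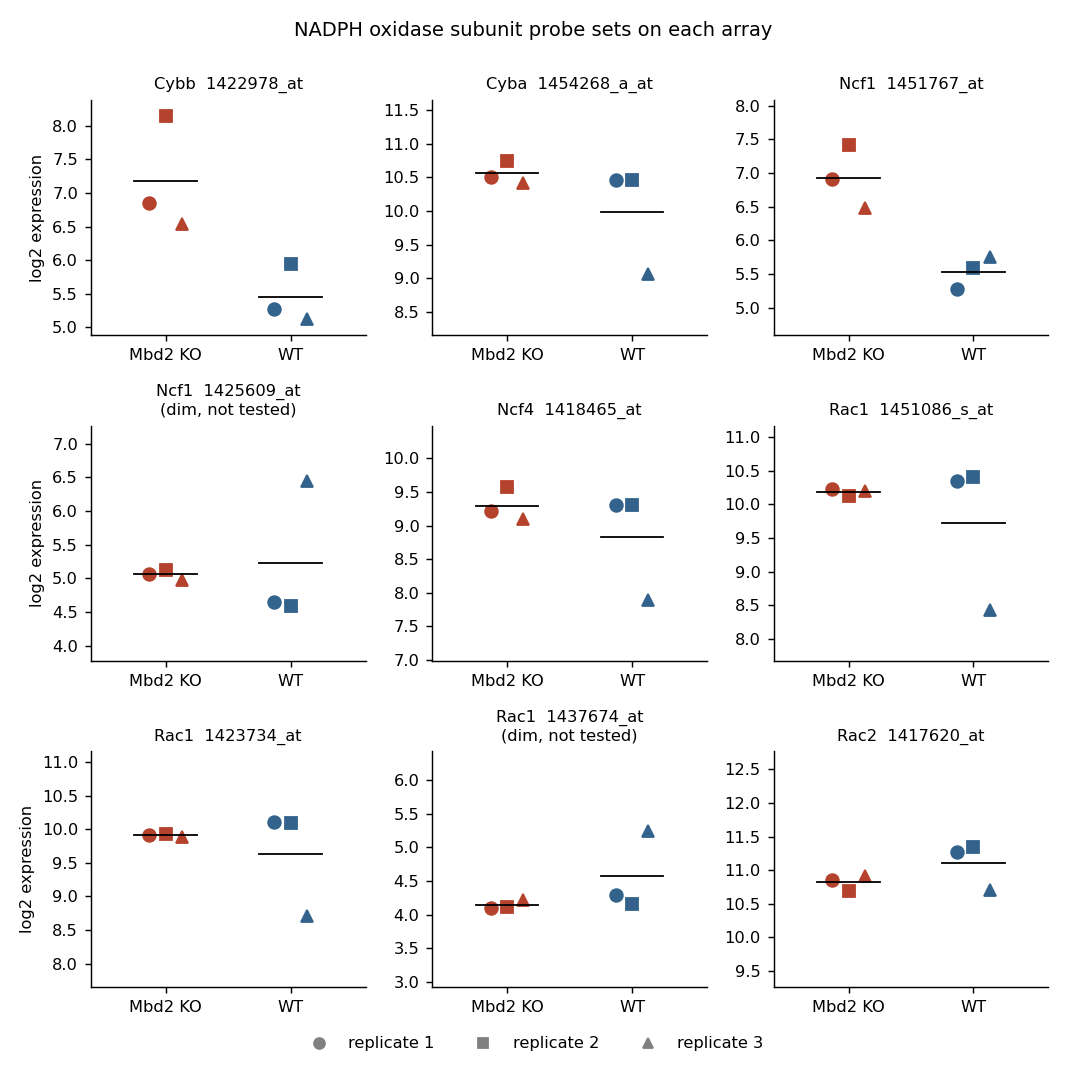
Log2 expression (y axis, panels of equal height with their own range) of the 9 oxidase probe sets on 3 KO arrays (left) and 3 WT arrays (right); each point is 1 array and the horizontal lines are group means. Cybb and the brighter Ncf1 probe set do not overlap between groups, and WT replicate 3 is the lowest array for Cyba, Ncf4 and both bright Rac1 probe sets.

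With 6 arrays 2 members were higher without overlap, Cybb and Ncf1, as were 10.4% of all tested probe sets. None was lower without overlap, against 5.72% of all. With 5 arrays the same 2 were higher, against 15.6% of all probe sets, and 3 were lower (Rac2 and both bright Rac1 probe sets), against 31.8% of all. The fit without KO replicate 2 and WT replicate 3 called 3 members, Cybb and Ncf1 higher and Rac2 lower, and 18.7% of all probe sets. That fit rests on 2 KO and 2 WT arrays, chosen after those arrays were seen to differ.

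Other call rules gave members of the same 3 genes. Array quality weights called Cybb, Ncf1 and Rac2 with 6 arrays, among 17.1% of all probe sets, and with 5 arrays, among 27.9%. An adjusted p under 0.1 with 5 arrays called Ncf1 and Rac2, among 5.74% of all. A rule that joined a 1.5-fold change to an unadjusted p under 0.05 called Cybb and Ncf1, among 3.86% of all probe sets with 6 arrays and 6.55% with 5.

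Within-array differences between members were computed for the 15 pairs of the 6 genes. The exact permutation test of a pair cannot go below a two-sided p of 0.1 with 3 against 3 arrays (adjusted over the pairs, 0.188), so no pair could pass. The shift of WT replicate 3 differed between dim and bright probe sets and does not cancel between Cybb or Ncf1 and the brighter members, so no order of the members was read from them.

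Genes whose products activate, traffic or assist the oxidase were counted as a list. Of 17 symbols listed as partners, 14 had a tested probe set, and 0 passed with 6 or with 5 arrays. With 6 arrays 11 were higher and 3 lower, with a median log2 difference of 0.26. With 5 arrays 5 were higher and 9 lower, with a median of -0.11. Cybc1, which encodes a chaperone needed for gp91phox expression, was at 8.33, 8.67 and 8.17 in KO arrays against 8.15, 8.25 and 6.85 in WT arrays. It followed Cyba in having WT replicate 3 as the lowest array, with differences of 0.64 (limma adjusted p = 0.829) and, with 5 arrays, 0.19 (adjusted p = 0.518). The kinase gene Prkcd, whose product phosphorylates p47phox, was at 7.93, 8.87 and 7.82 in KO arrays against 7.60, 7.57 and 7.50 in WT arrays. KO replicate 2 was its highest array, as for Cybb and Ncf1, and its differences were 0.65 and 0.62 (adjusted p = 0.829 and 0.308). Pik3cg, a phosphoinositide kinase gene of leukocytes, had differences of 1.14 and 0.30 (adjusted p = 0.829 and 0.476). The partner genes with the smallest p in the fit of 5 arrays, picked after their values were seen, had lower means in KO cells. They were Dock2 at -0.41 (adjusted p = 0.114), Slc9a3r1 at -0.42 (adjusted p = 0.134), Vav3 at -0.37 (adjusted p = 0.145) and Lsp1 at -0.28 (adjusted p = 0.16).

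Other genes of the NOX enzyme family, which work outside phagocytes, were also counted. Of 9 other NOX symbols only 2 were tested, Noxo1 and Duoxa1, both with lower means in KO cells and neither past the threshold, with medians of -0.61 and -0.17. Their WT replicate 3 values of 6.51 and 6.84 were the highest of the 6 arrays. Duoxa1 lay under the filter's cutoff of 5.18 in the KO arrays and in the mean of WT replicates 1 and 2. It thus entered the test through WT replicate 3, and its difference with 5 arrays was -0.04.

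Peroxidases of phagocyte granules, which use the peroxide made from superoxide, were counted next. Epx, the eosinophil peroxidase, was at 7.95, 7.47 and 7.27 in KO arrays against 4.65, 4.71 and 5.90 in WT arrays. Its level in WT replicates 1 and 2 lay under the filter's cutoff of 5.18. Its probe set therefore entered the test through the KO arrays, and the size of its difference rests on a WT level among the dim probe sets. It passed the threshold with 5 arrays (log2 difference 2.88, limma adjusted p = 0.00723) and did not with 6, at 2.48 (adjusted p = 0.216). Mpo, the myeloperoxidase of neutrophil granules, was at 8.36, 6.82 and 7.51 in KO arrays against 4.89, 5.58 and 5.10 in WT arrays. KO replicate 2 was the lowest KO array for Mpo, the reverse of its place for Cybb and Ncf1. Its differences of 2.37 and, with 5 arrays, 2.33 did not pass (adjusted p = 0.286 and 0.0699).

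Genes that remove superoxide and peroxide gave 15 tested members of 19 symbols, and 0 passed in either fit. With 6 arrays 14 were higher and 1 lower (median 0.59), and with 5 arrays 8 were higher and 7 lower (median 0.02). Hmox1, the haem oxygenase induced by oxidative stress, was at 6.94, 8.01 and 6.97 in KO arrays against 6.13, 6.19 and 5.98 in WT arrays. The groups did not overlap, and the differences were 1.21 and, with 5 arrays, 1.15 (limma adjusted p = 0.754 and 0.14). Prdx4, a peroxiredoxin of the secretory pathway, differed by 1.51 and 0.78 (adjusted p = 0.829 and 0.298).

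**Figure D3:**
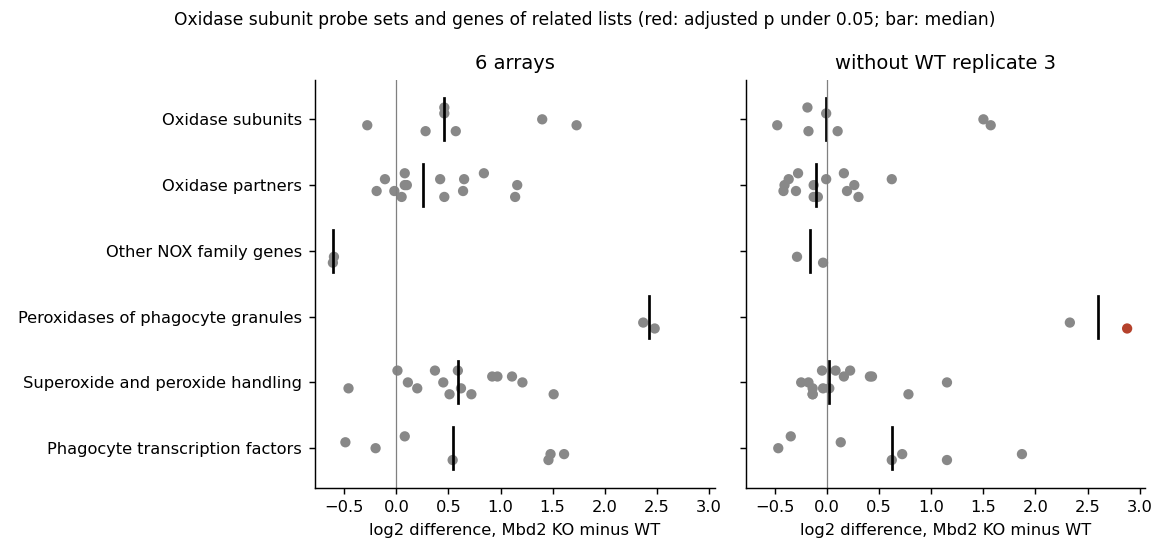
Log2 difference (KO minus WT, x axis) of the 7 tested oxidase probe sets and of each tested gene of 5 related lists, with 6 arrays (left) and without WT replicate 3 (right); bars are medians and red marks an adjusted p under 0.05. Cybb at 1.73 and Ncf1 at 1.40 stand above the partner genes, whose medians are 0.26 with 6 arrays and -0.11 with 5.

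Transcription factors of phagocytes were listed because PU.1 and IRF8 are known to act on the human CYBB promoter. Of 9 symbols 7 were tested and 0 passed in either fit, with 5 higher and 2 lower in both and medians of 0.54 and 0.62. Spi1 was at 7.22, 8.06 and 6.92 in KO arrays against 5.40, 5.65 and 6.33 in WT arrays. The groups did not overlap, and KO replicate 2 was again the highest. Its log2 difference was 1.61 with 6 arrays and 1.87 with 5 (limma adjusted p = 0.584 and 0.0603). Irf8 was at 8.59, 9.31 and 8.46 in KO arrays against 7.59, 7.68 and 6.71 in WT arrays. Its order over the arrays was that of Cybb, with differences of 1.46 and 1.15 (adjusted p = 0.617 and 0.0919).

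Tested markers of neutrophils, monocytes and macrophages, cells that carry the oxidase, had higher means in KO cells, as Cybb and Ncf1 had. Some of these markers, such as Cxcr2 and Cd14, overlapped between the groups, unlike Cybb and Ncf1. In bulk RNA, more cells of a type and more RNA per cell cannot be told apart. Neutrophil markers were higher for 12 of 12 tested genes, of which 4 rose with 6 arrays (Ngp, Camp, Ltf and Lcn2) and 8 with 5 (also S100a8, S100a9, Mmp9 and the dim Mmp8). Their summed linear level was 23952 to 34957 in KO arrays and 690 to 1615 in WT arrays. For monocyte and macrophage markers 9 of 9 tested genes were higher, and Lyz2 rose in both fits and Csf1r with 5 arrays. Their sum was 5237, 10578 and 4590 in KO arrays against 2192, 2281 and 1291 in WT arrays. A linear sum follows the brightest genes, here Lyz2 and Ctss, more than the list as a whole. Lyz2 was at 11.20, 11.82 and 10.81 in KO arrays against 5.89, 7.13 and 6.80 in WT arrays. Ctss was at 10.86, 12.12 and 10.88 against 10.85, 10.83 and 9.53, so KO replicates 1 and 3 lay close to WT replicates 1 and 2. KO replicate 2 had the highest sum of both lists, as it had the highest Cybb and Ncf1. Elane and Prtn3 of the neutrophil list were instead lowest there among KO arrays, at 6.55, 5.84 and 6.11 and at 7.38, 6.26 and 6.80. The other neutrophil markers were highest in KO replicate 2. Some markers entered the test through the KO arrays, with a mean of WT replicates 1 and 2 under the filter's cutoff. These were 3 of the 12 neutrophil markers (Mmp8, Prtn3 and Cxcr2) and 5 of the 9 monocyte and macrophage markers (Cd68, Adgre1, Fcgr3, Cd14 and Clec7a), so the counts of higher genes are descriptions. Itgam and Fcgr1 of the second list were dim and not tested. Itgam was at 5.56, 5.98 and 5.15 in KO arrays against 4.37, 4.61 and 4.83 in WT arrays. Fcgr1 was at 4.68, 5.47 and 4.55 against 4.43, 4.33 and 5.89, so its groups overlapped and WT replicate 3 was its highest array. The part of these cells in the Cybb and Ncf1 values was not tested.

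B cells also express Cybb. Of 6 tested B cell markers 6 were higher, and Spib rose with 5 arrays, by 1.55 (limma adjusted p = 0.0353). Their sum over 9 genes was 1739, 2483 and 1555 in KO arrays against 549, 984 and 471 in WT arrays, the array order of Cybb. Pax5, Fcer2a and Cr2 of that list were dim and not tested. Without the filter their differences were -0.40, -0.10 and 0.20 with 6 arrays, and 0.21, -0.08 and 0.19 with 5. Eosinophil markers had 2 tested genes, both near or under the cutoff in WT replicates 1 and 2, of which Prg2 rose in both fits and Epx, counted above, with 5 arrays, while Ccr3, Siglecf and Il5ra were dim in both groups. Their sum was 922 to 1439 in KO arrays and 125 to 174 in WT arrays. Dendritic cell markers were higher for 3 of 3 tested genes with 0 passing, among them Bst2 at 0.81 and Flt3 at 0.62, with sums of 464 to 697 in KO arrays and 331 to 380 in WT arrays. Xcr1 and Zbtb46 of that list were dim and not tested, at -0.36 and 0.02 with 6 arrays and 0.13 and 0.10 with 5. NK and CD8 T cell markers were higher for 6 of 7 tested genes with 6 arrays and 7 of 7 with 5, where Eomes rose by 1.17 (adjusted p = 0.0168). Of erythroid and platelet markers 2 were tested and 0 passed, with medians of -0.56 and 0.21. They were Hba-a1, at -0.82 and, with 5 arrays, 0.10, and Itga2b, at -0.29 and 0.31. Hba-a1, at 7.45 in WT replicate 3 and under the cutoff in every other array, entered the test through that array.

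The labelled cell type was checked by its own markers, and T cell markers averaged log2 9.32 to 10.02 in KO arrays and 9.26 to 10.37 in WT arrays. Their means were lower in KO cells for 8 of 9 tested genes with 6 arrays and 9 of 9 with 5, among them Cd3g at -0.48 and Cd3e at -0.30 with 6 arrays, and 0 passed. Their sum was 10992, 6807 and 10924 in KO arrays against 14089, 13790 and 7070 in WT arrays. The 2 arrays with the lowest T cell sums were KO replicate 2, where Cybb was highest, and WT replicate 3. Treg markers had lower means for 8 of 9 tested genes in both fits, and Nrp1 and Itgae fell with 5 arrays, by -1.39 and -0.74. Their sum was 4608, 2425 and 5556 in KO arrays against 6827, 6668 and 2902 in WT arrays.

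**Figure D4:**
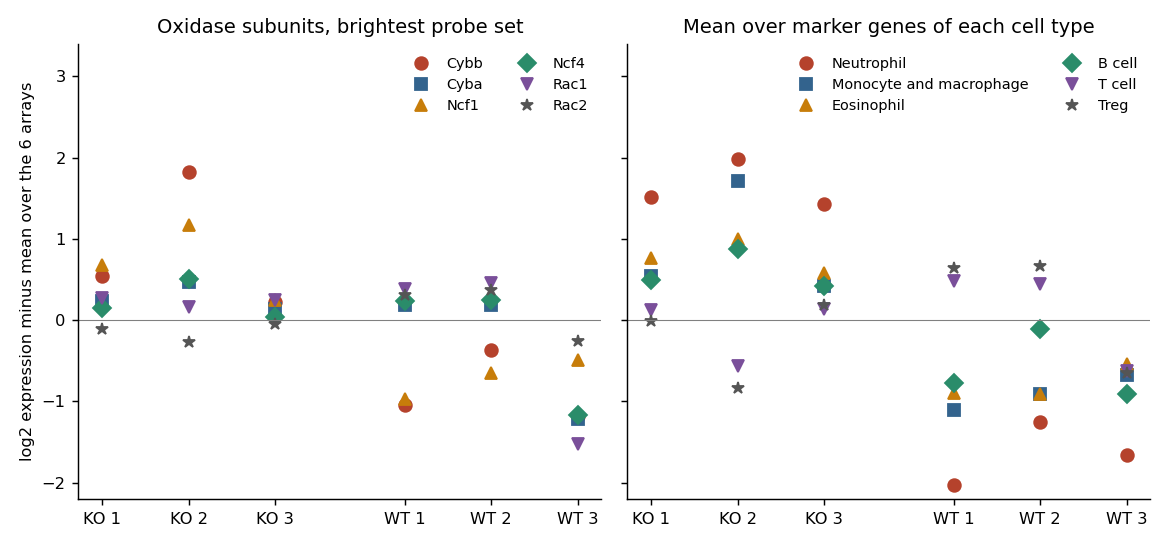
Log2 expression minus its mean over the 6 arrays (y axis) for the brightest probe set of each oxidase gene (left) and for the mean over each cell type's marker genes (right); each symbol is 1 array, KO arrays left of WT arrays. Cybb and Ncf1 are highest in KO replicate 2, where the neutrophil and the monocyte and macrophage markers are highest too and the T cell and Treg markers lowest among KO arrays.

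The array order of Cybb, from KO replicate 2 through KO replicates 1 and 3 to WT replicates 2, 1 and 3, was shared by 263 of 13575 tested probe sets, or 1.94%. Among list genes it was shared by Cd79a, Cd79b and Blnk (B cell), Mpeg1 and Clec7a (macrophage), S100a8 and Lcn2 (neutrophil), Irf8, Cebpb, Gpx1, Prdx4, Txn1 and Bst2. By the smallest root mean square difference of array values centred on their own mean over 6 arrays, the genes most like Cybb were Tcf4 (0.0851), Plek (0.15) and Cadm1 (0.159). Those most like Ncf1 were Ceacam1 (0.115), Anxa2 (0.119) and Syk (0.121). For both subunits the 3 nearest genes were high in all KO arrays and highest in KO replicate 2. The genes nearest to Cyba were Osbpl9, Smim7 and Anxa5, those nearest to Ncf4 were Wdfy1, Efhd2 and Oat, and those nearest to Rac1 were Sf3b2, Aph1a and Zcchc8, at 0.0243 to 0.0495. In these 9 genes the low value of WT replicate 3 was the main feature. Rac2 was nearest to Ddx46 (0.0323), Mnat1 (0.0357) and Tmem63a (0.0374). These likenesses rest on 6 arrays, WT replicate 3 included, and they are descriptions without a test.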

How the data were processed

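RNA of 3 KO and 3 WT samples was hybridised to single-colour arrays. The deposited matrix holds log2 expression, which the authors made with RMA per the submitters' processing notes; software and version are not stated there. Groups came from titles and genotype labels, and symbols from the platform annotation, updated through RefSeq. Left out were 64 control probe sets and the dimmest 40% by 6-array mean (log2 up to 5.18). The others went into limma (version 3.58.1, R 4.3.3) through lmFit and eBayes with a group term alone, and p-values were adjusted over all of them by Benjamini-Hochberg, with a threshold of 0.05. The fit was tested on simulated data.

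The members and 15 gene lists were chosen with earlier results of these data known. All members were named, and from each list the genes past the threshold in either fit or, with none, the 2 with the smallest p with 6 arrays; Cybc1, Mpo and Spi1 were named whatever their values. A gene was represented by its brightest tested probe set. Summed marker levels add the linear values of all measured genes of a list. Alternatives were the filter, the variance model, array weights, scaling, the replicate block, left-out arrays, call rules and averaging over probe sets. The permutation test of pairs (scipy 1.17.1) was added after the data were seen. Figures were drawn in matplotlib 3.10.9. The number of arrays limits the precision.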

Additional observations from a re-analysis of the deposited data

How the results depend on the processing

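Cybb and Ncf1 were higher and Rac2 lower in KO cells under every alternative run with 6 or 5 arrays. For Ncf1 this holds for its brighter probe set and for the average of its probe sets. Its dim probe set had a log2 difference of -0.17 with 6 arrays without the filter. Log2 differences with 6 arrays were 0.94 to 2.05 for Cybb, 0.61 to 1.62 for Ncf1 and -0.59 to -0.17 for Rac2. With 6 arrays the count of called members was 0, and it was 3 with array weights, 3 without WT replicate 3 and KO replicate 2, and 2 by an unadjusted p under 0.05 with a 1.5-fold difference. With 5 arrays it was 0, and it was 3 with array weights, 2 with an adjusted p under 0.1, 2 by the unadjusted p with a 1.5-fold difference, and 0 to 3 when 1 more array was left out (3 without KO replicate 2). The cause was not tested. With 6 arrays the array weights were 0.448, 4.389 and 0.0289 for WT replicates 1, 2 and 3. They were 8.24, 0.585 and 3.653 for KO replicates 1, 2 and 3. The weighted WT level with 6 arrays thus rested mostly on WT replicate 2. With 5 arrays the weights were 1.698 for each WT array and 3.191, 0.13 and 0.837 for KO replicates 1, 2 and 3.

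Cyba, Ncf4 and Rac1 depended on WT replicate 3. Cyba, at 0.57 with 6 arrays, was 0.10 without it, 0.04 with array weights and 0.18 after a further quantile normalization. With 6 arrays Ncf4 turned to -0.10 with array weights and to -0.14 without WT replicate 3 and KO replicate 2, and ran from -0.01 to 0.69 with 1 array left out. The brightest Rac1 probe set turned to -0.18 and -0.16 in these settings and ran from -0.19 to 0.80. The other bright one turned to -0.17 and -0.19, to -0.11 after a further quantile normalization, and ran from -0.18 to 0.51. With 5 arrays Ncf4, near 0, was 0.01 after that normalization and ran from -0.14 to 0.09. The cause was not tested. Averaging a gene's probe sets gave 0.61 with 6 arrays and 0.97 with 5 for Ncf1, and 0.10 and -0.15 for Rac1. A further quantile normalization moved the median difference of all probe sets to 0.06, against 0.15.

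With the replicate number as a block the count was 0 with 6 arrays and 2 with 5 (Cybb and Ncf1), and Ncf4 with 5 arrays was 0.09. Deviations of same-numbered arrays from their group means correlated at 0.15, -0.0919 and -0.141, and not every array correlated best with its own number. With 3 arrays per group, and WT replicate 3 apart from the others, these correlations cannot decide whether the numbers pair the samples. Where 1 WT array was left, it was assumed to vary like the KO arrays.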

Other observations

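Ncf4 and Rac2 lie on the same chromosome, with 10 protein-coding genes between them in the RefSeq order, 6 of which had a tested probe set. None of these passed the threshold in either limma fit. Csf2rb, the shared receptor chain for GM-CSF, IL-3 and IL-5, was at 6.64, 7.52 and 6.33 in KO arrays against 5.34, 5.54 and 5.06 in WT arrays. Its values did not overlap between groups and had the array order of Cybb, with log2 differences of 1.51 and, without WT replicate 3, 1.39 (limma adjusted p = 0.548 and 0.106). Il2rb, a receptor chain of T and NK cells, lies in the same stretch and had differences of 0.15 and -0.26 (adjusted p = 0.89 and 0.364). The genes of that stretch thus had unlike values, as did Ncf4 and Rac2 themselves.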
